A study of Mus musculus with 3 samples.

Results

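Interferon-stimulated genes are genes whose transcription is switched on when a cell senses interferon. The list examined here holds 32 of them, from the transcription factors of the pathway to its antiviral effectors, and each was matched by symbol to 1 of the 21887 protein-coding gene records of GRCm38.p6, the RefSeq form of mm10. A gene was taken to carry H3K9ac in a library if a summit of that library lay inside its record or within 1 kb of either end. H3K9ac, acetylation of lysine 9 of histone H3, is a mark of active promoters and enhancers. It was mapped by CUT&Tag, in which an antibody guides a transposase that cuts and tags the DNA around the mark. The libraries came from sorted haematopoietic stem cells (HSCs) of the bone marrow of wild-type mice, with 50000 cells per assay. There was 1 library in each of 3 groups: old HSC ABC and old HSC, both from mice of 18 to 24 months, and young HSC, from mice of 2 to 4 months. The labels do not say what ABC stands for, and the sources used here state neither the sex nor the number of the animals. With 1 library per group no difference has a replicate check, and the comparisons below are descriptions without a test.

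The names of the peaks went against the labels in all 3 lists. The list labelled old HSC ABC carried the name oHSC-H3K9ac-2, that labelled old HSC carried oHSC-ABC-H3K9ac-1 and that labelled young HSC carried oHSC-H3K9ac-1. Groups below follow the labels, and every direction holds for the libraries as labelled. Under the inner names no list would be young, and the list with the most summits would be the ABC one. Because all 3 lists are affected, no result can be given without them. The lists held 45386 summits in the library labelled old HSC ABC, 108787 in that labelled old HSC and 33248 in that labelled young HSC. The depth behind each list is unknown, and depth and group cannot be told apart in these unequal lengths. Of 13 HSC marker genes, 12 had a summit in each library, the exceptions being Hoxb5 in both old-labelled lists and Slamf1 in the young-labelled list. The Hoxb5 record had its nearest summits at 1069 bp in the old HSC ABC list, 1003 bp in the old HSC list and 986 bp in the young HSC list. The strongest summits of HSC markers had median ranks at 37.6% (old HSC ABC), 10.4% (old HSC) and 29.1% (young HSC) of list length. Over all genes with a summit the medians were 17.7%, 8.02% and 20.4%. The share of all genes with a summit was 62.1%, 73.7% and 58.2% in the same order. Markers of other blood cells were also marked in part, several groups at counts near or below those shares. Granulocyte and monocyte genes had a summit in 6, 7 and 6 of 8 cases (old HSC ABC, old HSC, young HSC), plasmacytoid dendritic cell genes, among them Bst2 of the 32, in 4, 5 and 3 of 5, macrophage genes in 2, 3 and 1 of 3, B cell genes in 1, 3 and 1 of 4, T and NK cell genes in 1, 2 and 1 of 4, and erythroid genes in 2, 2 and 1 of 4. The neutrophil genes S100a8 and S100a9 stood above all 32 interferon-stimulated genes in the old HSC and young HSC lists. S100a8 ranked 807 in the old HSC ABC list, 13 in the old HSC list and 44 in the young HSC list, and S100a9 ranked 2253 in the old HSC ABC list, 17 in the old HSC list and 41 in the young HSC list. The other genes of that group were not as strong in the old HSC and young HSC lists. Mpo ranked 1997, 5932 and 1283 and Ly6c2 6695, 5713 and 7279 in the old HSC ABC, old HSC and young HSC lists. In the same order Itgam ranked 25730, 10437 and 18208 and Csf1r 29857, 8388 and 15165. Elane had a summit in the old HSC list alone, at rank 20041. Ly6g, Cd79a, Cd8a, Ncr1, Hba-a1 and Hbb-bs had none in any list. The part of other cells in the results below was not tested.

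Interferons bound at the cell surface activate Jak kinases. Type I interferon leads to a complex with Stat2 and Irf9 that binds the interferon-stimulated response element (ISRE), while type II interferon acts through the gamma-activated site (GAS). In the bone marrow, interferon is known to push quiescent HSCs into the cell cycle, and stem cells are known to express a number of interferon-stimulated genes without infection.

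The promoters are where these factors are known to bind. RefSeq promoter sequences of GRCm38.p6, each covering 250 bases before and 50 bases from the start site, were at hand for 26 of the 32 genes, without Ifi27l2a, Oas2, Usp18, Dhx58, Zbp1 and Parp14. The ISRE core searched was GAAANNGAAA, or TTTCNNTTTC on the other strand, and the GAS was TTCNNNGAA, which reads alike on both strands. An ISRE core was found in 12 of the 26 genes (46.2%), against 689 of 17492 protein-coding genes (3.94%). A GAS was found in 7 of the 26 genes (26.9%), against 1560 of the 17492 (8.92%). The 12 genes with an ISRE core were Stat2, Isg15, Ifih1, Ddx60, Eif2ak2, Oas1a, Ifit1, Ifit3, Ifitm3, Bst2, Rsad2 and Gbp2. They held 20 matches, of which 16 ended before the start site. Bases are counted from 0 at the start site. A match is a description of letters and not a measured binding site.

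The 8 promoters printed here are those on which the positions and absences below turn, with ISRE and GAS matches in capitals and each sequence read 5′ to 3′ on the strand of its gene. The Isg15 promoter (chr4:156200769-156201068, - strand) has 3 overlapping ISRE cores that begin 78, 72 and 66 bases before the start site. Ddx60 (chr8:61927837-61928136, + strand) has a pair of cores, and Oas1a (chr5:120907476-120907775, - strand) has 2 overlapping cores and a separate GAS. Ifit1 (chr19:34640639-34640938, + strand) has 2 cores on the opposite strand, and Gbp2 (chr3:142620413-142620712, + strand) has 1. In Ifitm3 (chr7:141010695-141010994, - strand) 2 cores lie just after the start site and a GAS overlaps the second of them. In Bst2 (chr8:71537423-71537722, - strand) a GAS overlaps the first of 2 overlapping cores. Ifi209 (chr1:173630609-173630908, + strand) is shown as a promoter with neither motif.
Isg15: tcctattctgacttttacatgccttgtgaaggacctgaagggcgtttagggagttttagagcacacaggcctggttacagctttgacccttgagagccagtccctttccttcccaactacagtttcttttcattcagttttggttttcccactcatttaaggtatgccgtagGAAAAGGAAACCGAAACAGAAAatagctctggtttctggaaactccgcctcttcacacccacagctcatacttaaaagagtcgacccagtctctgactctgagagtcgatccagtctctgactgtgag
Ddx60: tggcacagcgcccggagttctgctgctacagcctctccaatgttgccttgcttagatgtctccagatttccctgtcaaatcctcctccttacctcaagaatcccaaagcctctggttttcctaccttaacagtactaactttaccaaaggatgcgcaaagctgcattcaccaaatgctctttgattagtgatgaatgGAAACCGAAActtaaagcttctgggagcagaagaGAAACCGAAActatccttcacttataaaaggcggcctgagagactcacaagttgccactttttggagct
Oas1a: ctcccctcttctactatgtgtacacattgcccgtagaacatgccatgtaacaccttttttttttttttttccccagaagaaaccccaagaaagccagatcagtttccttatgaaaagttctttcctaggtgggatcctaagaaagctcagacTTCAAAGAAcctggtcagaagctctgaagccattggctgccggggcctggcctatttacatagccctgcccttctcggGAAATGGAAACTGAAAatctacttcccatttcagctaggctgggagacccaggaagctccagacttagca
Ifit1: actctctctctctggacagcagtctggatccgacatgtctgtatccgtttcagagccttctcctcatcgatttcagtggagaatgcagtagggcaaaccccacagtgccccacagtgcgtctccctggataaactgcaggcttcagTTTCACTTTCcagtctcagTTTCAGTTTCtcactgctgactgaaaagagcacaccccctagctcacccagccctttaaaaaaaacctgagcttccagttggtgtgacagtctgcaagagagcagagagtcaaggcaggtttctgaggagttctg
Gbp2: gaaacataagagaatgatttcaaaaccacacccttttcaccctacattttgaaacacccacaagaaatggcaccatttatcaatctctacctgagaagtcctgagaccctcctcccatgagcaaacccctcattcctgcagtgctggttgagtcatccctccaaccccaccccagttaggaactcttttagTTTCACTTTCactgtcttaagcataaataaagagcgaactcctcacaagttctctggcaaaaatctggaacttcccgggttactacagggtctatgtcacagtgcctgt
Ifitm3: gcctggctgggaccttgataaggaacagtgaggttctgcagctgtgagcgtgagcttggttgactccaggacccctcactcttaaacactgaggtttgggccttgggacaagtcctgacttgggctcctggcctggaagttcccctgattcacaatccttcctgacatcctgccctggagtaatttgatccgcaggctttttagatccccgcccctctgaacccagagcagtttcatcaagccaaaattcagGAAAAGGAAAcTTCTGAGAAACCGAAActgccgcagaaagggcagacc
Bst2: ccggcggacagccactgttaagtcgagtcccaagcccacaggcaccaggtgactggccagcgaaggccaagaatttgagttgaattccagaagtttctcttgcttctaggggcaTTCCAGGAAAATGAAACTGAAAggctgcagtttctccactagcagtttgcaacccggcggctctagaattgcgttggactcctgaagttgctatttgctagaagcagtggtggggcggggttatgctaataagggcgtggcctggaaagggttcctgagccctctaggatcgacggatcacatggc
Ifi209: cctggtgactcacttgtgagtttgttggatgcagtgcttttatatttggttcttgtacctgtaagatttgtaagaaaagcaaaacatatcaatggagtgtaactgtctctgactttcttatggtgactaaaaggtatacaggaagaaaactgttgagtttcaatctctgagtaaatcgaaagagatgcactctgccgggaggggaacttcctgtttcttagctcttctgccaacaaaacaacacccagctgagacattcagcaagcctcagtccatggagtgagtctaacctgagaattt

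Nearly all of these genes carried H3K9ac in every library. A summit was present at 30 of 32 genes in the old HSC ABC list, 31 of 32 in the old HSC list and 30 of 32 in the young HSC list, and 29 genes had one in all 3. Over all 21887 protein-coding genes the shares were 62.1% in the old HSC ABC list (95% Clopper-Pearson interval 61.5 to 62.8), 73.7% in the old HSC list (73.1 to 74.3) and 58.2% in the young HSC list (57.5 to 58.8), and 54.4% of genes had a summit in all 3. The intervals cover counting error only. The records of the 32 genes had a median length of 14515 bp, against 17169 bp over all genes. Isg15 alone had no summit in any library, as did 5545 of all genes (25.3%).

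**Figure D1:**
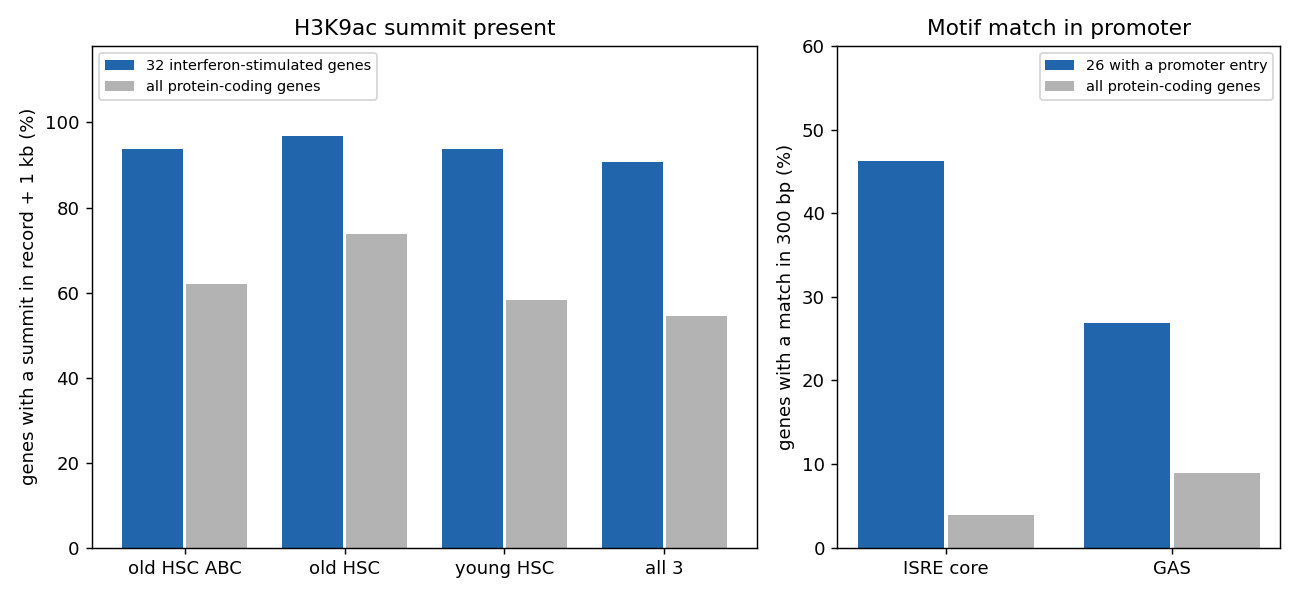
The left panel plots the percentage of genes with an H3K9ac summit in the record or within 1 kb of it, for the 32 interferon-stimulated genes and for all 21887 protein-coding genes, in each library and in all 3 at once. The right panel plots the percentage of genes whose 300-base promoter holds an ISRE core or a GAS, for the 26 genes with a promoter sequence and for 17492 protein-coding genes; in each pair the left bar is higher, at 46.2% against 3.94% for the ISRE core.

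In the presence of a summit at any score, the libraries differed at only 2 of the 32 genes. Old HSC against young HSC addressed age. Ifi27l2a was the 1 gene with a summit in the old HSC list and none in the young HSC list, where 15.9% of all genes showed that pattern, and no gene of the 32 showed the reverse, against 0.402% of all genes. Old HSC ABC against old HSC addressed the ABC condition. No gene had a summit in the old HSC ABC list and none in the old HSC list (0.69% of all genes), and 1 gene, Ifi209, showed the reverse (12.2% of all genes). Old HSC ABC against young HSC gave 1 gene on each side, Ifi27l2a in the old HSC ABC list (7.57% of all genes) and Ifi209 in the young HSC list (3.61% of all genes). These comparisons share libraries, and their shares over all genes come from lists of unequal length. When every list was shortened to its 33248 highest-scoring summits, the length of the shortest list, Ifi27l2a was still the 1 gene with an old HSC summit and no young HSC summit (6.11% of all genes), and no gene showed the reverse (3.62% of all genes). In those lists 2 of the 32 genes, Ifi209 and Zbp1, had an old HSC summit and no old HSC ABC summit (6.65% of all genes), and the same 2 genes had a young HSC summit and no old HSC ABC summit (5.53% of all genes).

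Ifi27l2a encodes a small hydrophobic protein of the interferon-alpha inducible Ifi27 family (chromosome 12, 103433873 to 103443680). Its strongest summit had a score of 6.16 in the old HSC ABC list and 17.2 in the old HSC list, at positions 103443368 and 103443362, only 6 bp apart. The score is the authors' own value for each summit, read as the −log10 of a q-value in that library, and serves only to rank summits within 1 list. Both summits lay just inside the upper end of the record. A second, weaker pair lay near the lower end, with scores of 3.25 in the old HSC ABC list and 2.79 in the old HSC list. That pair also lay in the window of the neighbouring Ifi27. In the young HSC list the nearest summit was 8539 bp beyond the record, in the window of Ifi27l2b.

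Ifi209 belongs to the Ifi200 family of DNA-binding proteins (chromosome 1, 173630859 to 173647928). It had no summit in the old HSC ABC list, where the nearest one lay 31800 bp beyond the record in the window of its relative Ifi213. The old HSC list had 3 summits there, the strongest with a score of 24.8 and rank 6006, 244 bp into the gene, followed by summits of 8.64 and 4.84. The young HSC list had 1 summit, with a score of 6.21 and rank 10976, 80 bp into the gene. The promoter printed above holds neither an ISRE core nor a GAS.

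Isg15, a ubiquitin-like protein that is joined to other proteins and is also secreted (chromosome 4, 156199424 to 156200818), is the gene whose promoter holds the most ISRE cores of the 26 and the only gene of the 32 without a summit in any list. Its nearest summits stood about as far from the record in every list, 2994 bp before the start site in the old HSC ABC list (position 156203812, score 5.01), 2999 bp in the old HSC list (position 156203817, score 15.6) and 3043 bp in the young HSC list (position 156203861, score 7.30). Those summits lay in the window of the neighbouring record Perm1. Widening the window to 5 kb beyond each end made 31, 32 and 31 genes marked in the old HSC ABC, old HSC and young HSC lists. Usp18, the protease that removes Isg15 from proteins and dampens interferon receptor signalling, was marked in all 3, at ranks 4479, 5614 and 4132 of the old HSC ABC, old HSC and young HSC lists. Its summit lay 126 bp beyond the record in the old HSC ABC list, 39 bp inside it in the old HSC list and 522 bp beyond it in the young HSC list.

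The median rank of these genes stood ahead of that of all marked genes in each list, beyond its interval in the full old HSC list only. Rank is given as top percent, the rank of a gene's strongest summit divided by the length of its list, so that small values are strong. The median over the marked genes was 11.6% in the old HSC ABC list, 4.70% in the old HSC list and 14.0% in the young HSC list, against 17.7%, 8.02% and 20.4% over all genes with a summit. The 95% order-statistic interval of the median, taken over genes that are not replicates, was 6.87% to 19.8% in the old HSC ABC list, 2.56% to 6.87% in the old HSC list and 9.40% to 22.4% in the young HSC list. The median of all genes lay inside it in the old HSC ABC and young HSC lists and outside it in the old HSC list. Among the marked genes 14 of 30 (46.7%), 26 of 31 (83.9%) and 10 of 30 (33.3%) were in the top 10% of the old HSC ABC, old HSC and young HSC lists, against 32%, 57.2% and 27.1% of all marked genes. Ranks in lists of unequal length are no measure of change. In lists of equal length the medians were 13.9% in the old HSC ABC list, 15.4% in the old HSC list and 14.0% in the young HSC list, against 21.7%, 20.2% and 20.4% over all genes. The intervals there were 7.64% to 27% in the old HSC ABC list, 8.39% to 22.5% in the old HSC list and 9.40% to 22.4% in the young HSC list, and each held the median of all genes.

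**Figure D2:**
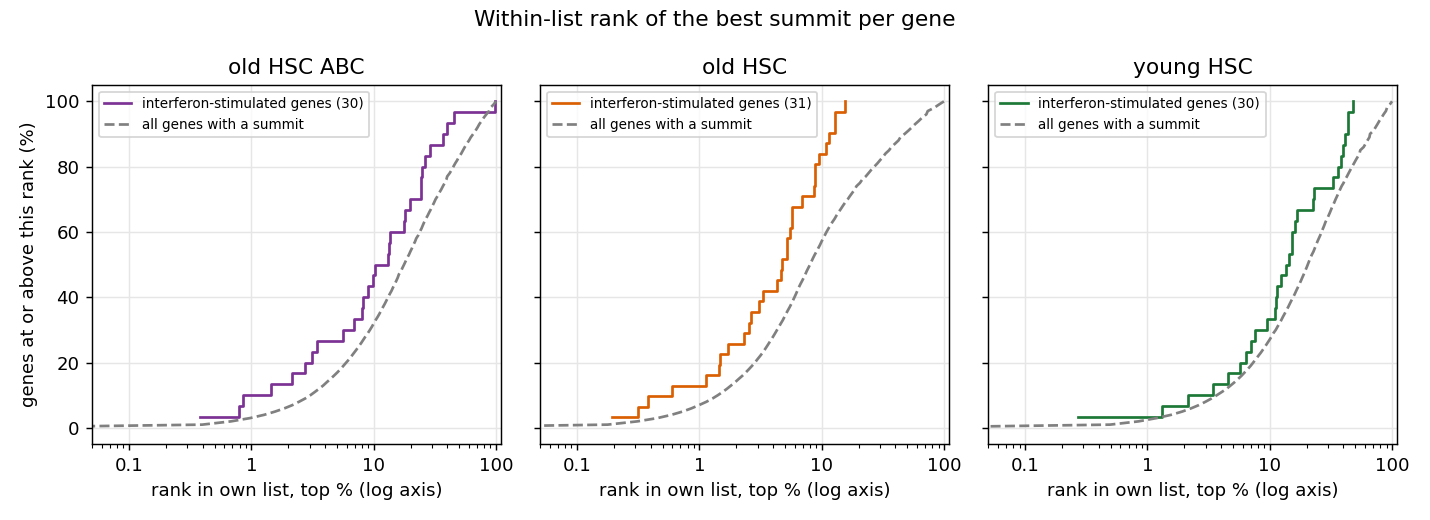
For each library, the solid line gives the percentage of marked interferon-stimulated genes whose strongest summit ranks at or above the top percent on the log x axis, and the dashed line gives the same for all protein-coding genes with a summit. The solid line lies mostly above the dashed one, with medians of 11.6% against 17.7%, 4.70% against 8.02% and 14.0% against 20.4%.

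The order of the genes was shared in part between the lists. Of the 8 strongest genes in each list, 6 were common to all 3: Ddx60, Eif2ak2, Oas1a, Oasl2, Sp110 and Trim25. The strongest summits of Eif2ak2 and Sp110 also lay in the windows of neighbouring records in every list. Of the 8 weakest marked genes in each, 3 were common: Dhx58, Ifit3 and Zbp1. Other genes changed place: Samd9l was in place 13, 28 and 22, Irf7 in place 9, 16 and 4 and Parp14 in place 4, 11 and 3 among the marked genes of the old HSC ABC, old HSC and young HSC lists. These 3 were named after their values were seen, and the order is a description and not a test.

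**Figure D3:**
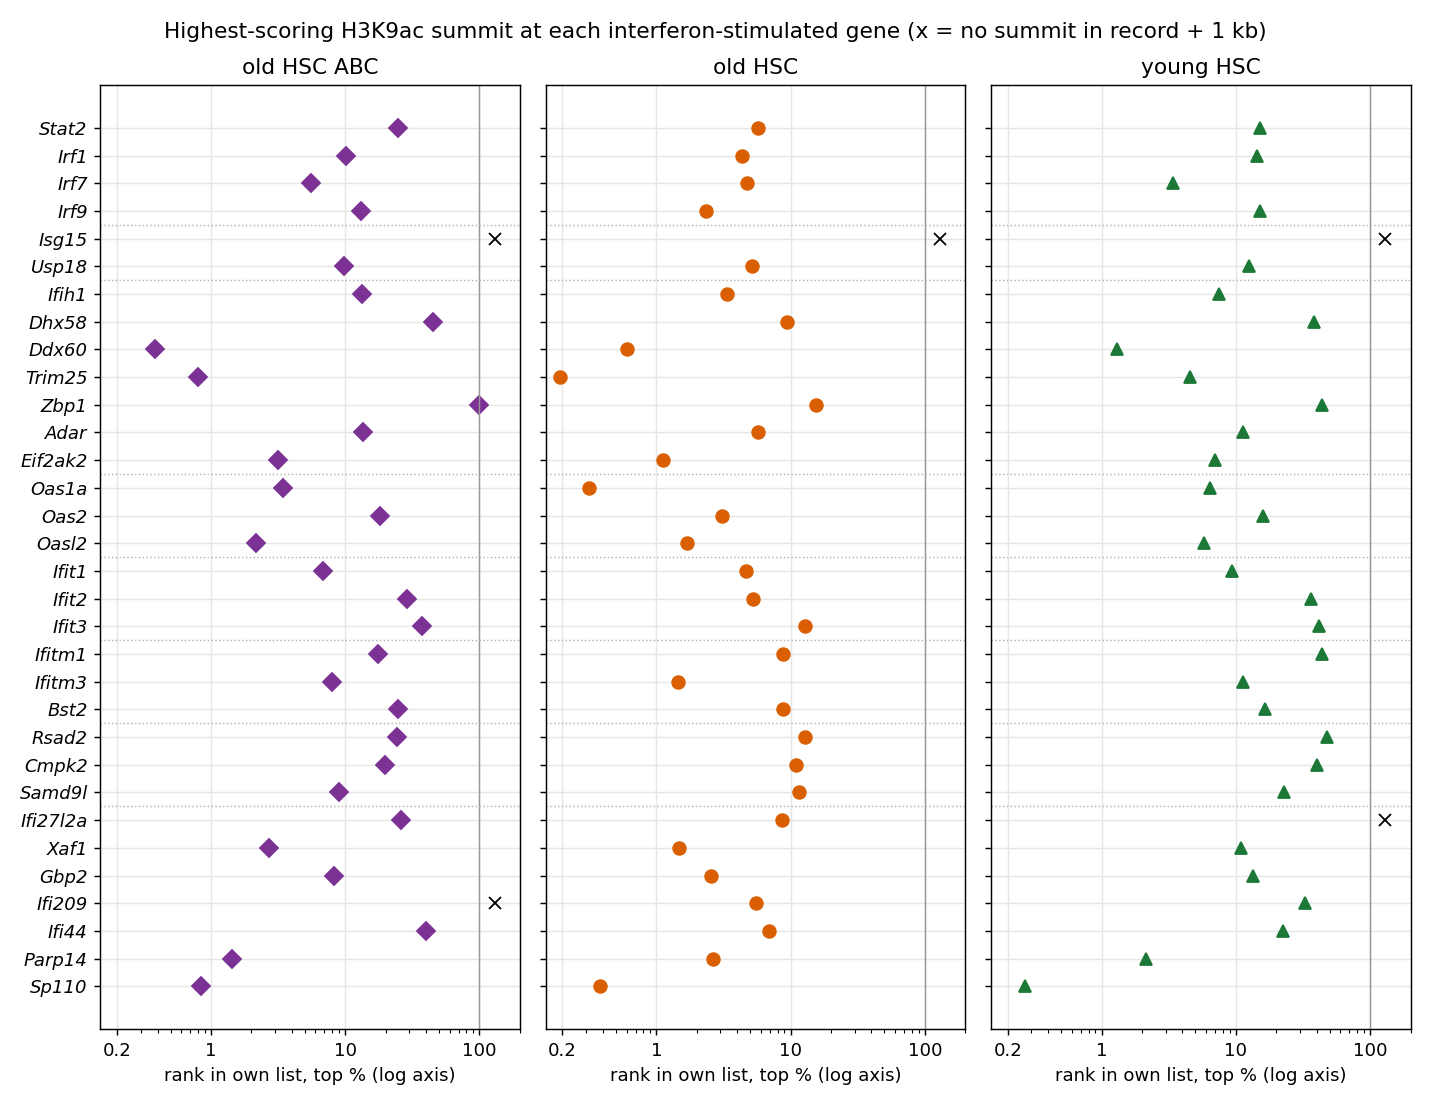
Each row is a gene, grouped by role with dotted lines between groups, and each panel is a library; the x axis is the rank of the gene's strongest summit in that list as top percent on a log axis, and a cross marks a gene with no summit. Isg15 has a cross in every panel, Ifi209 in old HSC ABC and Ifi27l2a in young HSC. Ddx60 and Sp110 lie far to the left in every panel, and Trim25 in the old HSC ABC and old HSC panels, while in young HSC it is at 4.55%.

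Among the signal transducers and transcription factors, all 4 genes were marked in all 3 libraries. Stat2 (chromosome 10, 128270498 to 128292853) is the part of the type I complex that activates transcription. Its strongest summit lay at 128270700, 128270700 and 128270725, with scores of 6.41, 24.3 and 11.3 in the old HSC ABC, old HSC and young HSC lists. These summits were 202, 202 and 227 bp into the gene in the old HSC ABC, old HSC and young HSC lists, and they also fell in the window of Apof. All 4 genes had their strongest summit within 1 kb of a start site in every list. Irf9, which gives the complex its DNA contact (chromosome 14, 55603985 to 55610030), had its summit 198, 263 and 70 bp into the gene, at ranks 5938, 2534 and 5017 in the old HSC ABC, old HSC and young HSC lists. It shared that summit with the window of Rnf31. Irf7, the factor that amplifies interferon production (chromosome 7, 141263183 to 141266499), stood at ranks 2539, 5118 and 1131 in the old HSC ABC, old HSC and young HSC lists, and was the fourth strongest of the genes in the young HSC list. Irf1, which type II interferon induces through a GAS (chromosome 11, 53770014 to 53778374), had ranks 4621, 4723 and 4790 in the old HSC ABC, old HSC and young HSC lists. The GAS found in its promoter began 90 bases before the start site. A second Irf1 summit stood more than 2 kb into the gene in all 3 lists, at 53772706, 53772617 and 53772703 in the old HSC ABC, old HSC and young HSC lists.

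The genes of RNA sensing held both the strongest and the weakest summit of the 32 in the old HSC ABC and old HSC lists. Trim25, a ubiquitin ligase that activates RIG-I (chromosome 11, 88999403 to 89020294), ranked 361, 210 and 1513 in the old HSC ABC, old HSC and young HSC lists. Its strongest summit lay at 89000232, 89000232 and 89000535 in the old HSC ABC, old HSC and young HSC lists, or 829, 829 and 1132 bp into the gene. Ddx60, a helicase linked to RNA sensing (chromosome 8, 61928073 to 62037704), has the longest record of the 32, 109632 bp, yet had 1 summit in each list. That summit was at 61928285, 61928289 and 61928289, at ranks 173, 655 and 435 in the old HSC ABC, old HSC and young HSC lists. It lay 198, 202 and 202 bp into the gene in the old HSC ABC, old HSC and young HSC lists, downstream of the pair of ISRE cores printed above.

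Eif2ak2 encodes PKR, the kinase that halts translation on double-stranded RNA (chromosome 17, 78850504 to 78882572). It ranked 1426, 1220 and 2339 in the old HSC ABC, old HSC and young HSC lists. Its summit stood at 78882582, 10 bp before the start site, in both the old HSC ABC and young HSC lists, and 335 bp into the gene in the old HSC list. The window of Gm26637 also held it. A second summit deep in the record recurred in all 3, at 78862141, 78862440 and 78862173, with scores of 4.20, 9.86 and 3.35 in the old HSC ABC, old HSC and young HSC lists. Ifih1, the RNA sensor MDA5 (chromosome 2, 62595618 to 62646255), had a single summit in each list, at ranks 6034, 3630 and 2508 in the old HSC ABC, old HSC and young HSC lists. Its position varied more: it stood 35 bp before the start site in the old HSC ABC list, 148 bp after it in the old HSC list and 574 bp after it in the young HSC list.

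Adar, the enzyme that edits adenosine in double-stranded RNA (chromosome 3, 89714469 to 89753455), is known for an interferon-inducible and a constitutive promoter. RefSeq gives it 3 start sites, and its strongest pair of summits in each list lay near them. The upstream summit stood at 89715457, 89715451 and 89715451, at ranks 12458, 7202 and 4180 in the old HSC ABC, old HSC and young HSC lists. The downstream summit stood at 89730969, 89731227 and 89731233, at ranks 6143, 6266 and 3749 in the old HSC ABC, old HSC and young HSC lists. Within each list the downstream summit ranked ahead of the upstream one.

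Dhx58 encodes the RIG-I relative LGP2 (chromosome 11, 100694884 to 100704271) and had ranks 20398, 10277 and 12617 in the old HSC ABC, old HSC and young HSC lists. Its old HSC ABC summit, at 100704228, also fell in the window of Kat2a. Zbp1, a sensor of left-handed nucleic acid (chromosome 2, 173206612 to 173218959), had ranks 44855, 16704 and 14611 in the old HSC ABC, old HSC and young HSC lists. It was the weakest marked gene of the 32 in the old HSC ABC list, with a score of 1.60 in a list of 45386 summits. Its strongest summit lay beyond the record in all 3, by 493, 256 and 499 bp in the old HSC ABC, old HSC and young HSC lists. In the old HSC ABC and young HSC lists Zbp1 therefore counted as marked only through the added 1 kb, while the old HSC list also had summits inside the record.

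The OAS enzymes, which make the short oligoadenylates that activate RNase L, were marked in all 3 libraries. Oas1a (chromosome 5, 120896256 to 120907544) ranked 1571, 343 and 2140 in the old HSC ABC, old HSC and young HSC lists. Its strongest summit lay 295, 409 and 547 bp into the gene in the old HSC ABC, old HSC and young HSC lists, downstream of the overlapping ISRE cores. A second Oas1a summit recurred more than 7 kb into the gene, at 120899241, 120899694 and 120899845 in the old HSC ABC, old HSC and young HSC lists. The old HSC position lay within 500 bp of each of the others, which stood farther than that from each other. The position of Oasl2, an OAS-like protein (chromosome 5, 114896926 to 114912245), differed by at most 4 bp, at 114897707, 114897709 and 114897711 in the old HSC ABC, old HSC and young HSC lists. Its ranks were 975, 1853 and 1909 in the old HSC ABC, old HSC and young HSC lists. Oas2 (chromosome 5, 120730333 to 120749886) ranked 8170, 3366 and 5338 in the old HSC ABC, old HSC and young HSC lists. Near the other end of its record it had a further summit in the old HSC list (score 13.8) and in the young HSC list (score 4.09).

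The IFIT genes, which encode antiviral RNA-binding proteins, lie together on chromosome 19, with 6585 bp between the records of Ifit2 and Ifit3 and 51907 bp between those of Ifit3 and Ifit1. Ifit1 (chromosome 19, 34640889 to 34650009) ranked 3117, 5098 and 3125 in the old HSC ABC, old HSC and young HSC lists. Its summit lay before the start site in all 3, by 44, 146 and 152 bp in the old HSC ABC, old HSC and young HSC lists. The ISRE cores of its promoter begin 104 and 85 bases before that site. The summit fell also in the windows of Ifit1bl1 and Ifit1bl2, so it cannot be given to Ifit1 alone. Ifit3 (chromosome 19, 34583119 to 34588982) had ranks 16836, 13865 and 13799 in the old HSC ABC, old HSC and young HSC lists. Ifit2 (chromosome 19, 34550550 to 34576534) had a pair of summits that recurred in every list, 1 near its start and 1 about 19 kb inside the record. The start summit stood at 34551107, 34550924 and 34550881, with scores of 5.77, 25.9 and 5.67 in the old HSC ABC, old HSC and young HSC lists. The inner summit stood at 34570260, 34570259 and 34570015, with scores of 5.09, 15.8 and 5.79 in the old HSC ABC, old HSC and young HSC lists. The start summit thus had the higher score in the old HSC ABC and old HSC lists and the inner one in the young HSC list.

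Among the membrane proteins that restrict virus entry or release, Ifitm3 stood highest in each list (chromosome 7, 141009590 to 141010744). It had 1 summit in each, 248, 333 and 430 bp into the gene, at ranks 3644, 1576 and 3779 in the old HSC ABC, old HSC and young HSC lists. Ifitm1, 39763 bp away (chromosome 7, 140967429 to 140969827), ranked 7993, 9585 and 14532 in the old HSC ABC, old HSC and young HSC lists. Its summit lay 133, 143 and 107 bp before the RefSeq start site in the old HSC ABC, old HSC and young HSC lists. Both genes thus kept their summit within 500 bp of the start site. Bst2, or tetherin, which holds budding virions at the cell (chromosome 8, 71534255 to 71537472), ranked 11248, 9552 and 5528 in the old HSC ABC, old HSC and young HSC lists. Its strongest summit lay 1781 bp into the gene in the old HSC ABC list, 453 bp into it in the old HSC list and 359 bp before the start site in the young HSC list.

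Rsad2, or viperin, which makes a chain-terminating nucleotide, and Cmpk2, a mitochondrial nucleotide kinase, lie 12665 bp apart on chromosome 12. Rsad2 (chromosome 12, 26442743 to 26456452) ranked 10998, 13847 and 15828 in the old HSC ABC, old HSC and young HSC lists, with its summit 6, 106 and 246 bp into the gene. Cmpk2 (chromosome 12, 26469117 to 26479837) ranked 8983, 11862 and 13273 in the old HSC ABC, old HSC and young HSC lists, with its summit 777, 305 and 734 bp into the gene. Both were among the 8 weakest marked genes of the old HSC and young HSC lists. Samd9l, an interferon-induced inhibitor of cell growth (chromosome 6, 3372257 to 3399571), ranked 4059, 12571 and 7620 in the old HSC ABC, old HSC and young HSC lists, with summits 939, 990 and 962 bp into the gene.

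Among the other genes, Sp110, a nuclear body protein (chromosome 1, 85570735 to 85610850), ranked 385, 413 and 90 in the old HSC ABC, old HSC and young HSC lists, and had the strongest summit of the 32 genes in the young HSC list. That summit stood at 85601127, 85601017 and 85601012 in the old HSC ABC, old HSC and young HSC lists, also in the window of Sp140. It lay inside the record between the 2 RefSeq start sites of Sp110, over 2 kb upstream of the nearer one, at 85598810. A second Sp110 summit, 248, 116 and 248 bp into the gene from that start site, held ranks 1128, 940 and 2321 in the old HSC ABC, old HSC and young HSC lists. The window of Sp140 held this one too. Sp110 also had the most summits of the 32 genes in the old HSC ABC and old HSC lists, with 6, 8 and 3 in the old HSC ABC, old HSC and young HSC lists. The only summit of each list outside the window of Sp140 had a score of 3.21, 2.47 and 1.80 in the same order. The other summits cannot be given to Sp110 alone.

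Parp14, an ADP-ribosyltransferase (chromosome 16, 35831892 to 35871518), had its summit at 35871382, 35871382 and 35871380, at ranks 651, 2891 and 714 in the old HSC ABC, old HSC and young HSC lists. Xaf1, a partner of the apoptosis inhibitor XIAP (chromosome 11, 72301461 to 72313733), ranked 1237, 1610 and 3656 in the old HSC ABC, old HSC and young HSC lists, with summits 240, 563 and 240 bp into the gene. Gbp2, a guanylate-binding GTPase (chromosome 3, 142620663 to 142638008), ranked 3736, 2790 and 4492 in the old HSC ABC, old HSC and young HSC lists, with summits 195, 59 and 192 bp into the gene. These 3 genes each kept their strongest summit within 500 bp across the lists. Ifi44 (chromosome 3, 151730922 to 151749910) ranked 18101, 7474 and 7459 in the old HSC ABC, old HSC and young HSC lists, with positions that spanned 24 bp.

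Most of these genes kept the place of their strongest summit across the lists. Of the 29 genes marked in all 3 libraries, 24 (82.8%) had their strongest summits within 500 bp of each other, against 62.3% of the 11917 protein-coding genes marked in all 3. Within 100 bp there were 8 (27.6%), against 27.7% of all, so the finer share was near the background. A position other than the strongest old HSC summit was shared by all 3 lists in 8 of the 29 (27.6%), against 33% of all. Recurring second summits are thus not particular to these genes. The 5 genes with a wider span were Usp18 (561 bp), Ifih1 (609 bp), Dhx58 (704 bp), Bst2 (2140 bp) and Ifit2 (19091 bp). The strongest summit lay within 1 kb of a RefSeq start site in 22 of 24 marked genes with such a site in the old HSC ABC list (91.7%), 24 of 25 in the old HSC list (96.0%) and 22 of 25 in the young HSC list (88.0%). Over all genes the shares were 62.6%, 65.9% and 68.9%. Where it was that close, the median position was 198, 253.5 and 214.5 bp into the gene in the old HSC ABC, old HSC and young HSC lists, against 170, 168 and 206 bp over all genes. Records of all marked genes held more summits on average, 2.65, 4.90 and 2.17 in the same order, against 1.83, 2.58 and 1.67 for the interferon-stimulated genes. Those records were also longer, with medians of 26171.5, 23462 and 26148 bp, against 14515, 15320 and 16195 bp for the marked interferon-stimulated genes. The part of record length in the shares above was not tested.

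**Figure D4:**
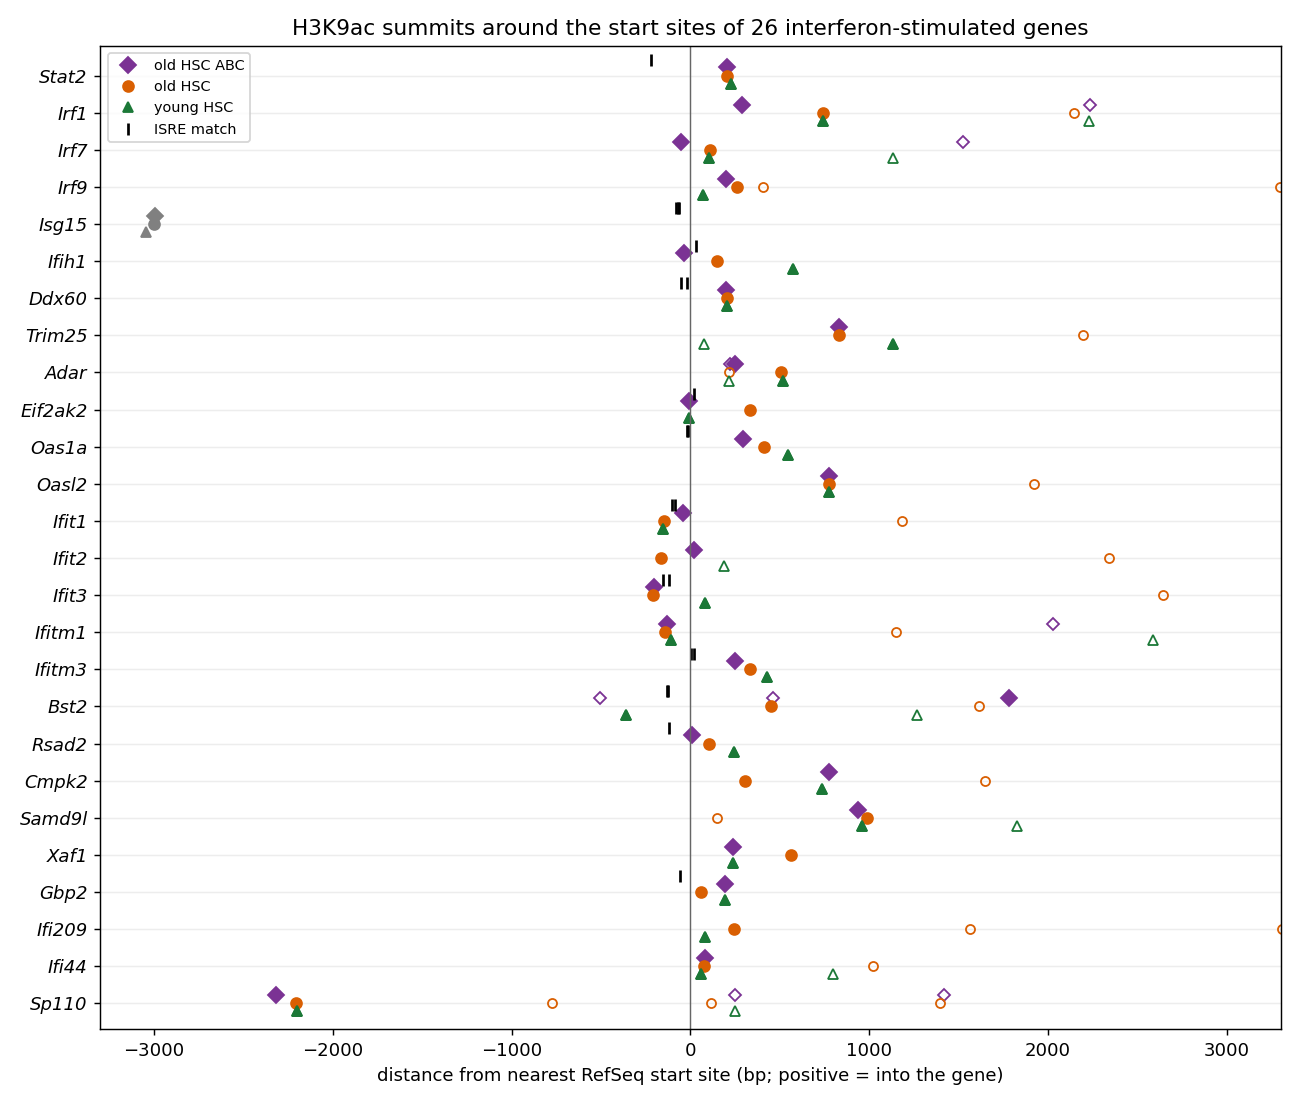
Each row is 1 of the 26 genes with a RefSeq start site, and the x axis is the distance of a summit from the nearest start site in bp, positive into the gene. Filled symbols are the strongest summit of a library, open symbols its other summits, grey symbols the nearest summit of a gene with none, and black ticks ISRE matches; summits farther than 3300 bp are not drawn, among them the strongest young HSC summit of Ifit2 and the nearest old HSC ABC summit of Ifi209. Most filled symbols lie just right of 0, and the grey ones of Isg15 lie 2994 to 3043 bp to the left.

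Genes with an ISRE core had slightly lower median top percents than genes without one, with wide overlap. In the old HSC ABC list the median was 8.23% for the 11 marked genes with a core and 10.2% for the 13 marked genes without, in the old HSC list 3.34% for 11 and 4.96% for 14, and in the young HSC list 11.4% for 11 and 14.7% for 14. The ranges overlapped almost wholly in each list, from 0.315% to 12.7% with a core and 0.193% to 11.6% without in the old HSC list.

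The counts for the rest of the pathway stand beside 62.1%, 73.7% and 58.2% of all genes marked in the old HSC ABC, old HSC and young HSC lists. Of 20 genes for receptors and signalling, 20 were marked in the old HSC ABC list, 20 in the old HSC list and 19 in the young HSC list. The exception was Socs3, a feedback inhibitor of Jak kinases, whose nearest young HSC summit lay 6082 bp away. The receptor gene Ifnar2 stood at ranks 769, 475 and 184 of the old HSC ABC, old HSC and young HSC lists. Of 12 sensors and adaptors, 8, 12 and 10 were marked in the old HSC ABC, old HSC and young HSC lists, and the 8 of 12 in the old HSC ABC list is a share near that of all genes. The adaptor genes Ticam1 and Myd88 lacked an old HSC ABC summit, with the nearest ones 13332 and 1308 bp away, and the endosomal receptor genes Tlr7 and Tlr9 were marked in the old HSC list alone. Of 42 further interferon-stimulated genes with a record, 40, 41 and 40 were marked. Gbp3 lacked a summit in the old HSC ABC list and Ifi27 in the young HSC list. The chemokine gene Cxcl10 had none in any list, its nearest summits being 4923, 4881 and 4888 bp from the record.

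The interferon genes themselves were mostly without a summit. Of 21 interferon genes, 5, 5 and 3 had a summit in the old HSC ABC, old HSC and young HSC lists, and 14 had none in any. Ifnb1 had its nearest summits at 16899, 5954 and 6396 bp, and Ifng at 24837, 23208 and 25018 bp. The median rank of those that were marked was 62.4%, 62.4% and 78.6%, low in each list.

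**Figure D5:**
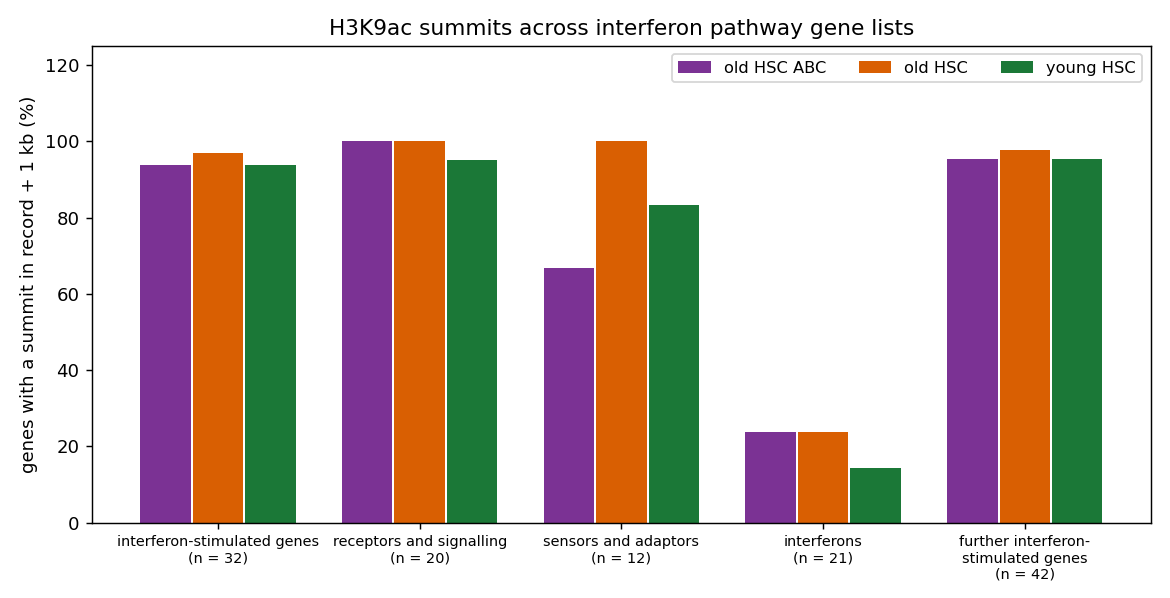
Bars give the percentage of genes with an H3K9ac summit in the record or within 1 kb of it, in 5 lists of the interferon pathway, with the old HSC ABC, old HSC and young HSC libraries side by side. Most lists stand near the top of the axis, sensors and adaptors are at 8, 12 and 10 of 12 genes, and interferons are lowest at 5, 5 and 3 of 21.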

How the data were processed

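Per the submitters' processing notes the build was mm10 and BWA, Picard, MACS2 and edgeR were used; the sources used here do not state their roles, versions, control library or settings. The authors deposited 1 list of 1 bp summits per library. The deposited score is read as a −log10 q-value, because each list begins just above 1.30, the −log10 of 0.05. It depends on depth, so it was used only for ranks within a list. Summits were assigned to the 21887 protein-coding records of GRCm38.p6 on chromosomes 1 to 19, X and Y. Summits of 2 lists counted as shared within 500 bp. A position counted as shared by all 3 lists if an old HSC summit had a summit within 500 bp in both other lists. Start sites and promoters came from RefSeq. Exons, introns and UTRs were not analysed here. The genes and lists were chosen with earlier results of these data known; all 32 genes could be named, with pathway genes that differed or were unmarked. Ifnar2 was named after its values were seen. 1 gene of the pathway lists is not reported here. Mx1 and Mx2 are not analysed here, and Oas1b and Oas1g shared 1 record. The counting was tested on made-up summits. Intervals cover counting error only. Python 3.11.15, numpy 2.4.6, pandas 2.3.3 and scipy 1.17.1 were used.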

Additional observations from a re-analysis of the deposited data

How the results depend on the processing

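With 1 library per group no replicate could be left out. No paired analysis was possible because each group has 1 library. Of 168 values under 12 alternatives, 137 stayed within 1.5 times the reported count or inside the interval of the reported median. This tally is a coarse measure, since counts of 30 or 31 of 32 genes could leave that range only by a large fall. The young HSC count of 20 at scores of at least 10, against 30 as reported, still counted as within it. The values outside were as follows, where a difference is the number of genes with a summit in the first list named and none in the second. Of these alternatives, only the equal-length lists have shares over all genes given here. The other differences have no such background and cannot be read as particular to these genes. With 500 bp beyond each end, old HSC against young HSC gave 2 and old HSC ABC against young HSC gave 2. With summits near record ends only, old HSC ABC against old HSC gave 1 and old HSC ABC against young HSC gave 2. Near RefSeq start sites only, old HSC and old HSC ABC each gave 0 against young HSC, since Ifi27l2a has no such site in the table. With scores of at least 5, old HSC gave 4 against young HSC and 5 against old HSC ABC, old HSC ABC gave 3 against young HSC, young HSC gave 4 against old HSC ABC, and the median ranks were 26.2%, 12.1% and 28.8% (old HSC ABC, old HSC, young HSC). With scores of at least 10, old HSC gave 10 against young HSC and 15 against old HSC ABC, young HSC gave 6 against old HSC ABC, and 15 genes were marked in the old HSC ABC list. Shared positions then numbered 18 (old HSC and young HSC), 15 (old HSC ABC and old HSC), 14 (old HSC ABC and young HSC) and 13 (all 3), against 29, 29, 27 and 27 without a minimum. No share over all genes is given for these shared positions, with or without a minimum. The median ranks at that minimum were 28.3%, 30.6% and 55.8%. With either minimum score, ranks were divided by the length of the shortened list. Those percents therefore rise as weak summits leave, and do not mean that the genes became weaker. In equal-length lists, old HSC and young HSC each gave 2 against old HSC ABC, and the old HSC median was 15.4%. Without summits in another protein-coding window, old HSC gave 3 against young HSC and 3 against old HSC ABC, old HSC ABC gave 2 against young HSC and young HSC gave 2 against old HSC ABC. Depth is unknown, so an absent summit may lie below detection in the shorter lists.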
